A study of Mus musculus with 24 samples.

Results

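Interferon-induced genes outside the p200 family were followed in fat and muscle of NZO and B6 mice. The set comprised the genes whose name on the array is that of an IFIT, IFITM, OAS, guanylate-binding, immunity-related GTPase, Mx, IRF, ISG15-type or other listed IFI gene, or of Rsad2, Usp18, Stat2, Zbp1 or an RNA sensor of the RIG-I type. Of 34836 gene names on the array, 69 matched by name, through 95 probes, and 64 were well above background on every array used of at least 1 group. Gbp8, Ifi44l, Iigp1b, Oas1g and Oas1h were not, and are not described further. Of the 64 members, 55 were well above background on all arrays of all 6 groups and 9 on all arrays of 1 to 5 groups. The names brought in some genes that are not classical interferon targets, such as Ifitm5, Ifitm10, Isg20l2 and the 3 IRF2 binding proteins.

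Interferons are secreted when a cell's sensors meet foreign nucleic acid. Type I interferons act through the receptor chains Ifnar1 and Ifnar2 and the kinases Jak1 and Tyk2 on a complex that holds Stat2 and Irf9 and binds a DNA element named ISRE, while interferon gamma acts on genes with a GAS element. The induced genes act against viruses and intracellular microbes: IFIT proteins bind foreign RNA, IFITM proteins hinder viral entry, OAS enzymes activate RNase L, Mx proteins are GTPases that trap viral components, and guanylate-binding proteins and immunity-related GTPases attack the vacuoles of pathogens. In fat, such genes are known both in resident macrophages and in adipocytes.

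The upstream stretches of 5 members are shown because they carry the letters of an ISRE core, which only a part of the members held. The choice of members by name did not use these letters, and the 5 were picked after their motifs were seen. Promoter windows from 250 bases before to 50 after the start were found in RefSeq (GRCm38.p6) for 44 of the 64 members. The letters GAAA, any NN and GAAA again, searched on both strands as a core of the ISRE, occurred in 20 of these 44 (45.5%) and in 3.99% of the 27025 genes of the table. The letters TTCNNNGAA, a core of the GAS element that reads the same on both strands, occurred in 13 of 44 members (29.5%) and in 9.55% of all genes. Both motifs, which may overlap, occurred in 6 members. The following are the 130 bases before the start, 5′ to 3′ on the strand of the gene, with this doubled GAAA or its reverse complement in capitals.
Isg15, chr4:156200819-156200948, minus strand: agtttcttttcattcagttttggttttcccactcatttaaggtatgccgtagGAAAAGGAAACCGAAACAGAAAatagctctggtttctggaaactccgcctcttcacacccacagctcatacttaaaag
Ifit1, chr19:34640759-34640888, plus strand: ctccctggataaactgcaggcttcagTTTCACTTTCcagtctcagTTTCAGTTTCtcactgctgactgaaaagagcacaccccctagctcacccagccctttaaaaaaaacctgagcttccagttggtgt
Oas1a, chr5:120907526-120907655, minus strand: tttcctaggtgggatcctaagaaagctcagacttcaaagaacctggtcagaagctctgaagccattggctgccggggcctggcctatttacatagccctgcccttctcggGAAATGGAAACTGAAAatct
Irgm2, chr11:58214847-58214976, plus strand: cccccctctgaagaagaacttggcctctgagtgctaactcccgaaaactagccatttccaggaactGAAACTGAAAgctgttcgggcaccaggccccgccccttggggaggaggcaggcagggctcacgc
Gbp3, chr3:142559914-142560043, plus strand: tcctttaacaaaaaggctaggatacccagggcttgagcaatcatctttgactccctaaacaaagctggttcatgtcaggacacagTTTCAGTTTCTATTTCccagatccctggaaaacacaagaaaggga
In Isg15 3 overlapping copies began 78, 72 and 66 bases before the start, and in Irgm2 the single copy began 64 bases before it. Ifit1 had its copies at 104 and 85 bases, and Oas1a at 20 and 14. The genes that share these letters did not share one strain difference. Of 20 tested members with the doubled GAAA, 4 were higher and 2 lower in NZO white fat, and of 23 without it 8 were higher and 1 lower. A match describes the letters only.

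The samples were male NZO/HiBomDife mice (New Zealand Obese, a polygenic model of obesity and diabetes) and C57BL/6 mice (B6, a common laboratory strain), 6 weeks of age. Both strains received a high-fat diet with 45% fat, so no group shows the genes on a standard diet. White fat of the gonadal depot (gWAT), skeletal muscle, titled "quad", and brown fat (BAT) were each measured with 4 single-colour arrays a strain. The labels do not say whether the samples came from separate animals, so the p-values measure only the spread between these samples, which may be technical. The tissues are bulk samples, in which fewer cells of a type and less RNA per cell cannot be told apart.

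Levels are given on a log2 scale with the array's own 75th percentile of signal at 0, and differences are NZO minus B6 on that log2 scale with the standard error (SE) of limma's fit. A gene changed if its Benjamini-Hochberg adjusted p over all genes tested was under 0.05. The 75th percentile was 201 to 311 units in gWAT, 119 to 155 in BAT and 123 to 176 in muscle, and 52.9% to 60.4% of probes were well above background. The number of arrays limits the precision: the median SE of a member's strain difference was 0.20 in gWAT, 0.14 in BAT and 0.17 in muscle. Fibre markers were high in muscle (summed level 13.2 to 13.6) and brown-fat markers in BAT (11.7 to 12.05), as labelled. The array titled B6_quad_011 was left out by the rule that set this part. Its adipocyte markers summed to 10.4, against 7.32 to 8.05 on the other muscle arrays. Among the members it had the highest Mx1 (0.72), Irf8 (2.31) and Oas1a (2.94) of the B6 muscle arrays, so leaving it out bears on their strain differences there. B6 muscle therefore has 3 arrays throughout.

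In white fat, 17 of 63 members tested differed between the strains, 13 higher and 4 lower in NZO, where 31.2% of all genes tested differed (16.6% higher and 14.6% lower). The members' share was thus near that of other genes. Their median difference was 0.11, against 0.02 over all genes, and in 18 members the arrays of the strains did not overlap, where 35.5% of all genes did not. Of the IFITM genes, 5 of 6 tested were higher in NZO, of the OAS genes 3 of 10 and of the transcription factors 2 of 11. Of the 4 sensors and 3 IFIT genes limma called 0, with 1 of each under an unadjusted p of 0.05: Ifih1 (-0.42, adjusted p = 0.0529) and Ifit1 (0.87, adjusted p = 0.0508). The other probe of the sensor Zbp1, not used for this count, did pass, as given below. At an unadjusted p under 0.05, 23 of the 63 members differed, as did 43% of all genes tested. Without B6 gWAT replicate 010, 8 members were higher and 4 lower, where 22% of all genes differed.

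**Figure D1:**
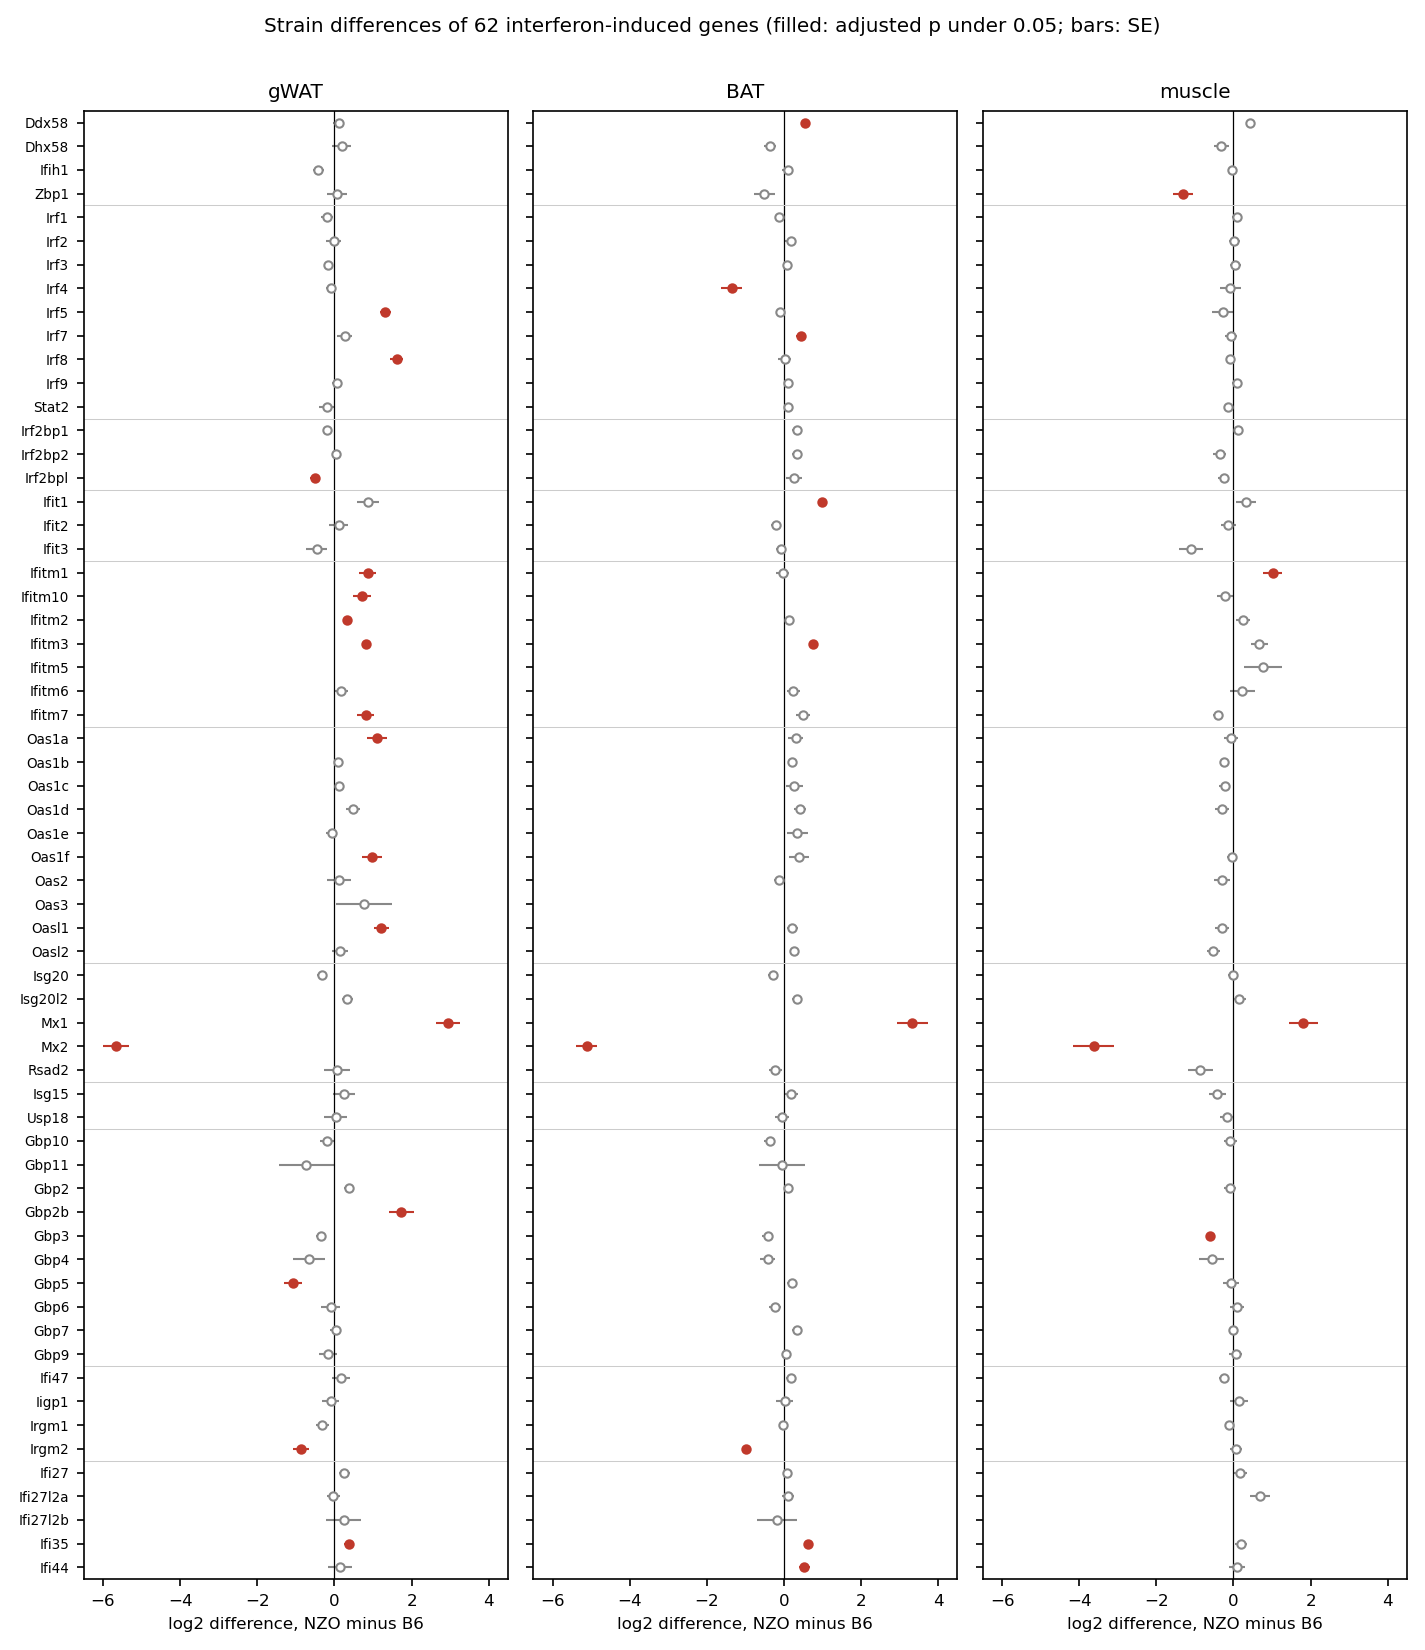
Strain difference of 62 members in the 3 tissues, as log2 NZO minus B6 with SE; filled points have an adjusted p under 0.05, grey lines part the roles, and a missing point was not tested. Mx1 lies to the right and Mx2 far to the left in every tissue, while most points lie near 0.

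On the arrays used, the Mx genes parted the strains in all 3 tissues, in opposite directions. Mx1 encodes the nuclear Mx GTPase that blocks influenza virus, and many inbred strains, C57BL/6 among them, are known to carry a defective Mx1 allele. In gWAT its level was 1.32, 2.05, 1.61 and 2.78 in NZO and -0.51, -1.097, -1.102 and -1.31 in B6. In BAT it was 0.64, 0.78, -0.22 and -0.64 in NZO and -2.75, -2.98, -2.97 and -4.06 in B6, where 3 of 4 arrays were well above background. In muscle it was -0.10, -0.39, -1.02 and -0.07 in NZO and -2.11, -1.52 and -2.97 in B6. No B6 array used reached the lowest NZO array of its tissue, but the left-out B6_quad_011, at 0.72, lay above every NZO muscle array. The difference was 2.95 (SE 0.32, 7.70-fold, limma adjusted p = 2.85e-04) in gWAT, 3.33 (SE 0.39, adjusted p = 9.00e-04) in BAT and 1.80 (SE 0.38, adjusted p = 0.0263) in muscle. The muscle call rests on the choice of arrays: with B6_quad_011 kept, adjusted p was 0.50.

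Mx2, the cytoplasmic Mx GTPase, gave no signal well above background on any NZO array. In gWAT its level was -0.34, -0.24, -0.51 and -0.95 in B6 and -6.98, -6.02, -6.39 and -5.33 in NZO. In BAT the B6 arrays lay between -1.23 and -0.60 and the NZO arrays between -6.56 and -5.45. In muscle the B6 arrays lay between -2.16 and -0.99 and the NZO arrays between -6.35 and -4.24. With the lowest signal well above background as a floor, it was at least 19.4-fold lower in NZO gWAT (adjusted p = 1.31e-05), at least 10.5-fold lower in BAT (1.62e-05) and at least 6.03-fold lower in muscle (0.00717). Each Mx gene was read by 1 probe, at mm9 chr16:97668644-97668703 for Mx1 and chr16:97782327-97782386 for Mx2, and RefSeq lists both genes as transcribed pseudogenes in the reference assembly. Whether the NZO sequence differs under these probes was not tested.

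Among the transcription factors, Irf8 and Irf5 were higher in NZO white fat. Irf8 directs the development of monocytes and dendritic cells. Its level in gWAT was 3.15, 3.33, 3.27 and 3.53 in NZO and 2.12, 1.61, 1.43 and 1.67 in B6, without overlap, and the means differed by 1.61 (SE 0.16, adjusted p = 2.12e-04). Irf5, a mediator of Toll-like receptor signals that is linked with inflammatory macrophages, was 1.58, 1.48, 1.49 and 2.04 in NZO and 0.27, 0.22, 0.32 and 0.49 in B6 gWAT. It differed by 1.32 (SE 0.15, adjusted p = 3.68e-04). In BAT the differences were 0.02 for Irf8 and -0.09 for Irf5, and in muscle -0.09 and -0.27, none of which passed the test. Stat2, Irf9 and Irf1 did not pass in any tissue in the main test. In gWAT, BAT and muscle Stat2 differed by -0.20, 0.10 and -0.13, Irf9 by 0.06, 0.11 and 0.09, and Irf1 by -0.20, -0.13 and 0.10. Irf7 and Irf4 were called in BAT, as given below.

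The higher Irf8 and Irf5 stood beside markers of immune cells. In gWAT 10 of 11 macrophage markers were higher in NZO (summed level 7.93 to 8.21 against 6.32 to 6.63 in B6), with all 11 well above background on at least 1 array of each strain. All 6 markers of natural killer cells were also higher (3.12 to 3.93 against 1.74 to 2.55), as were 2 of 5 B cell markers (2.06 to 4.53 against 0.67 to 1.05), with Pax5 not above background in either strain. Of 5 dendritic cell markers tested, Flt3 and Clec9a were higher and Batf3 and Zbtb46 lower in NZO, and the summed level was lower there (1.35 to 1.65 against 1.73 to 1.97), with Xcr1 not above background in either strain. The sums of T cell markers overlapped (2.71 to 3.63 in NZO and 2.85 to 3.11 in B6). Of 4 neutrophil markers 2 were higher and 1 lower (3.71 to 4.64 against 0.53 to 1.82), and of 7 brown adipocyte markers 4 were higher and 1 lower (6.03 to 6.74 against 3.03 to 3.90). In BAT 1 of 10 macrophage markers was higher and 1 lower, and in muscle 1 of 11 was higher. The part of these cells in the members' differences was not tested.

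**Figure D2:**
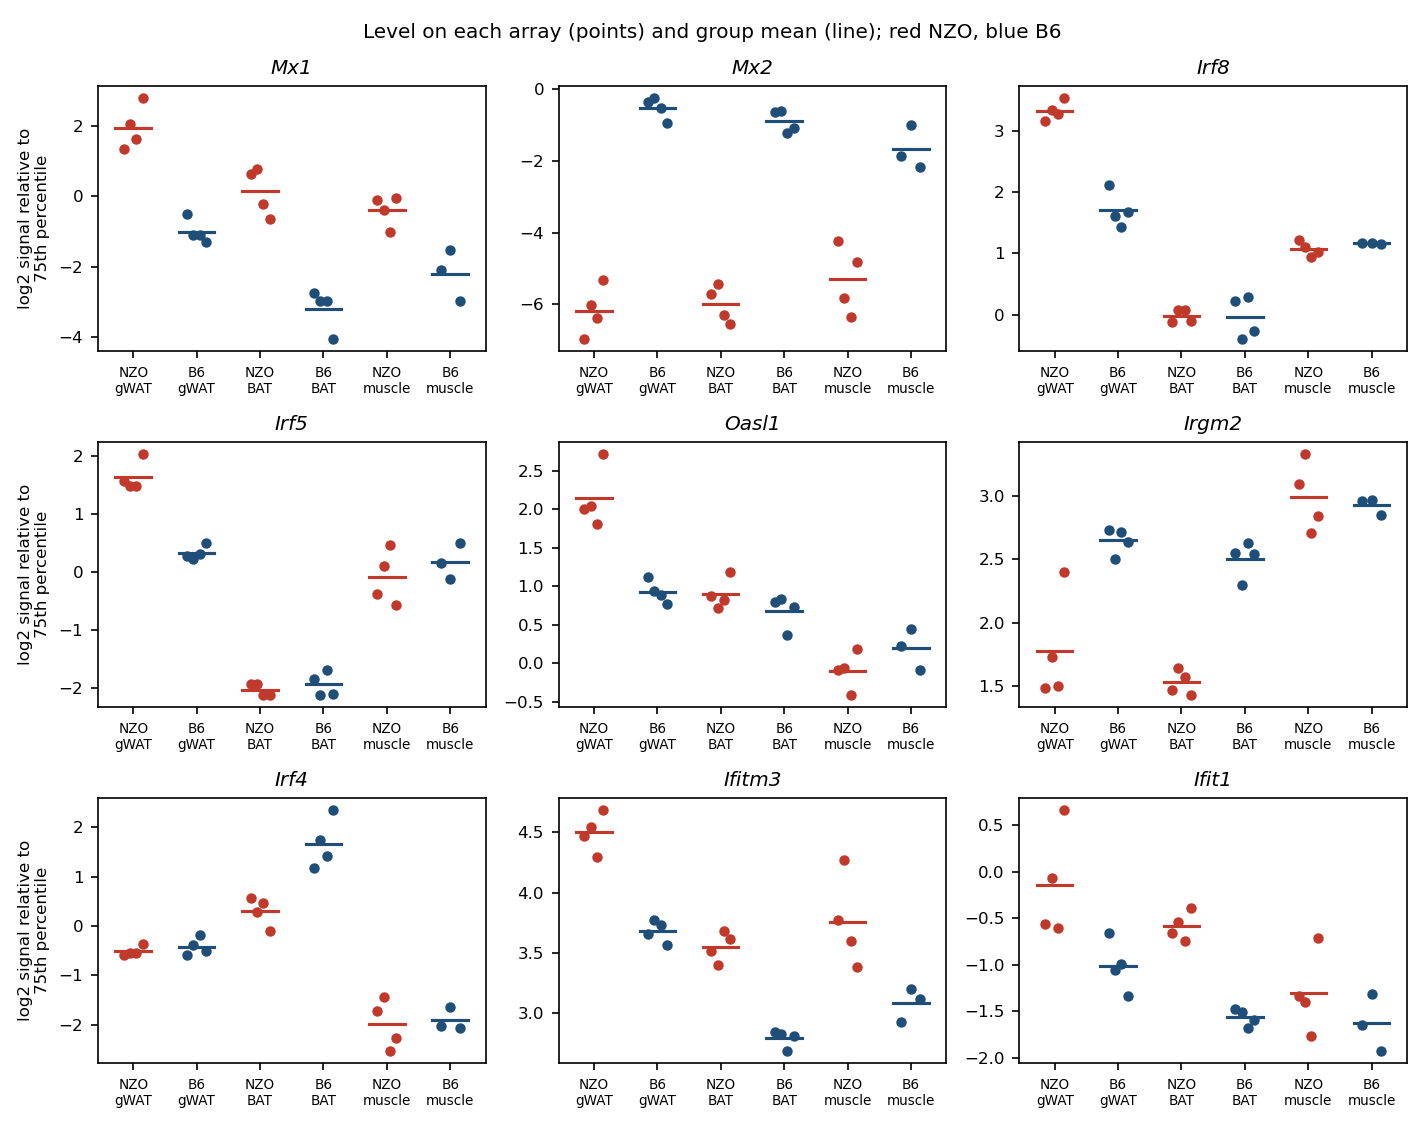
Level of 9 members on each array, on a log2 scale with the array's 75th percentile at 0; points are arrays, lines are group means, NZO in red and B6 in blue. B6_quad_011 is not drawn. Mx1 and Mx2 part the strains in every tissue, Irf8, Irf5 and Oasl1 in gWAT, Irgm2 in both fats, and Irf4 in BAT.

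OAS enzymes make the second messenger that activates RNase L. Oas1a, Oas1f and the OAS-like Oasl1 were higher in NZO gWAT. Oasl1, which represses translation of Irf7, was 2.001, 2.05, 1.81 and 2.72 in NZO and 1.12, 0.94, 0.89 and 0.77 in B6, and the means differed by 1.22 (SE 0.20, adjusted p = 0.00241). Oas1a was 3.78, 4.06, 3.71 and 4.56 against 3.28, 3.20, 2.89 and 2.33, and the means differed by 1.102 (adjusted p = 0.0136), and its other probe differed by 1.05. Oas1f differed by 0.98 (adjusted p = 0.0202). The strains did not overlap for any of these genes in gWAT, and they overlapped for all of them in BAT and muscle. Oas1 genes are near-identical copies, so their probes may read one another. The other OAS genes, such as Oasl2 (0.14) and Oas2 (0.12), did not pass.

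The IFITM genes encode small membrane proteins. Ifitm3 was 4.47, 4.55, 4.29 and 4.68 in NZO gWAT and 3.65, 3.77, 3.73 and 3.57 in B6, and the means differed by 0.82 (SE 0.12, adjusted p = 0.00114). In BAT it was 3.51, 3.40, 3.68 and 3.61 against 2.84, 2.82, 2.68 and 2.82, and the means differed by 0.76 (SE 0.09, adjusted p = 0.00111). In muscle the strains did not overlap either, but the difference of 0.67 missed the threshold (adjusted p = 0.0917). Ifitm1 was higher in NZO gWAT by 0.86 (adjusted p = 0.0183) and in muscle by 1.02 (0.0438), with -0.04 in BAT. The muscle call was lost with B6_quad_011 kept (0.93, adjusted p = 0.0597) and when any 1 array other than NZO replicate 011 was left out (0.86 to 1.13, adjusted p = 0.0753 to 0.146). Ifitm7 (0.81) and Ifitm2 (0.33) were also higher in NZO gWAT without overlap, and Ifitm10 (0.72) with overlap.

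Of the 2 families of vacuole-directed GTPases, few members differed. In gWAT 1 of 4 immunity-related GTPases was lower in NZO, and of 10 guanylate-binding proteins 1 was lower and 1 higher. In BAT 1 of 4 immunity-related GTPases was lower and 0 of 9 guanylate-binding proteins were called. In muscle these were 0 of 4, and 1 of 8, which was lower. Irgm2, a regulator of the immunity-related GTPases, was 1.49, 1.73, 1.4997 and 2.40 in NZO gWAT and 2.74, 2.50, 2.72 and 2.64 in B6, and the means differed by -0.87 (SE 0.21, adjusted p = 0.0141). In BAT it was 1.47, 1.64, 1.57 and 1.43 against 2.55, 2.30, 2.63 and 2.54, and the means differed by -0.98 (SE 0.10, adjusted p = 4.84e-04). In muscle the strains overlapped, with a difference of 0.07. Its relatives Irgm1, Ifi47 and Iigp1 passed in no tissue. Gbp5, which promotes inflammasome assembly, was lower by 1.09 in NZO gWAT (adjusted p = 0.0092), but its other probe differed by -0.05 (adjusted p = 0.893), so the call rests on 1 probe. Gbp2b, near background in B6, where 3 of 4 arrays were above it, was higher by 1.74 (adjusted p = 0.00423). The IRF2 binding protein Irf2bpl was lower by 0.51 (adjusted p = 0.0121), and by 0.53 on its other probe.

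1 array of NZO white fat stood apart in these genes, a check made after the values were seen. Replicate 012 was the highest of the 4 NZO gWAT arrays for 43 of the 62 members measured on all of them (69.4%), where it was the highest for 20.5% of all 20253 genes. Relative to the B6 mean, the members' median on this array was 0.34 and 50 of 63 members lay above that mean, Mx2 being left out. On replicates 003, 007 and 009 the medians were -0.079, 0.056 and -0.064, with 29, 33 and 27 members above. The same array was the highest for 40 of 50 other interferon-induced genes, a list given below. Its B cell markers summed to 4.53, against 2.06 to 2.52 on the other NZO arrays and 0.67 to 1.05 in B6. It was also the highest NZO gWAT array for natural killer cells (3.93 against 3.12 to 3.75) and T cells (3.63 against 2.71 to 3.35). The same held for macrophages (8.21 against 7.93 to 8.02), but not for dendritic cells, plasmacytoid dendritic cells or neutrophils. Whether these markers bear on the members was not tested. Replicate 012 was the only gWAT array on its slide, so slide and sample cannot be told apart for it. It also had the lowest 75th percentile of the gWAT arrays (201).

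**Figure D3:**
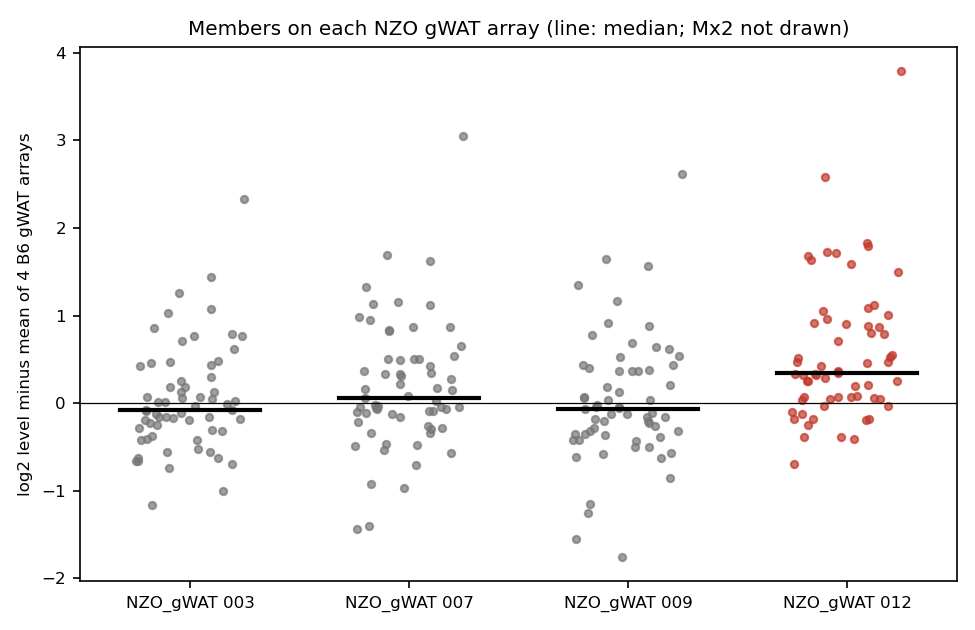
Members on each NZO gWAT array, as log2 level minus the mean of the 4 B6 gWAT arrays; points are the 63 members other than Mx2, lines are medians. Replicate 012, in red, has its median at 0.34, and the others have theirs between -0.079 and 0.056.

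Without replicate 012, 20 members differed, 11 higher and 9 lower, where 29.9% of all genes did, so the count of lower members rose from 4 to 9. The 15 members called both with and without it include Mx1, Mx2, Irf8, Irf5, Oas1a, Oasl1 and Irgm2. The RNA sensor Ifih1 then differed by -0.52 (adjusted p = 0.0188), Irgm1 by -0.48 (0.0124), Gbp3 by -0.46 (0.0172) and Irf1 by -0.34 (0.0499). Isg15, the ubiquitin-like modifier that is a common gauge of interferon action, read 3.34, 3.83 and 3.30 on the other NZO arrays, 4.56 on 012 and 3.59, 3.71, 3.58 and 3.13 in B6. Its difference was 0.26 with the array and -0.010 without it, and neither passed. Usp18, which removes ISG15 from proteins and restrains the receptor, read 0.76, 1.03 and 0.69 on the other NZO arrays, 1.94 on 012 and 1.41, 1.29, 1.03 and 0.56 in B6, and it passed in no tissue. Ifi35 differed by 0.37 both with the array and without it, where the call was lost (adjusted p = 0.0568). Ifitm10 differed by 0.72 with the array and by 0.64 without it, where it no longer passed (adjusted p = 0.102).

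In brown fat, 10 of 60 members tested differed, 7 higher and 3 lower in NZO, where 15.1% of all genes differed (7.59% higher and 7.51% lower). With arrays centred on their median, 4 were higher and 3 lower, where 11.4% of all genes differed. The split was the same without NZO BAT replicate 009, where 10.1% did. The members' median was 0.10, against 0.01 over all genes. In 12 members the strains did not overlap, where 21.5% of all genes did not. Besides Mx1, Mx2, Ifitm3 and Irgm2, Ifit1 was -0.65, -0.54, -0.74 and -0.39 in NZO and -1.48, -1.51, -1.68 and -1.59 in B6, and the means differed by 0.98 (SE 0.10, adjusted p = 4.93e-04). With the slide as a fixed block, in 1 fit of the 6 groups, the difference was 0.71. The call was lost there (limma adjusted p = 0.0634). On the slide that held both strains the arrays differed by 1.05. The other IFIT genes did not follow it: Ifit2 differed by -0.21 and Ifit3 by -0.08, and neither passed.

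Irf4, which in brown fat is known as a driver of the thermogenic programme, was 0.57, 0.29, 0.47 and -0.09 in NZO BAT and 1.17, 1.73, 1.41 and 2.35 in B6. All NZO arrays lay below all B6 arrays, by 1.36 on average (SE 0.26, adjusted p = 0.0102). Ifi35 (0.63, adjusted p = 0.0054), Ddx58 (0.56, 0.0186), Ifi44 (0.53, 0.0350) and Irf7 (0.43, 0.0391) were higher. Ddx58 encodes the RNA sensor RIG-I. Its other probe differed by 0.18 (limma adjusted p = 0.628), so the call rests on 1 probe. In BAT 5 of 6 natural killer cell markers were higher in NZO (summed level 2.76 to 3.61 against 0.79 to 1.27). All 8 muscle fibre markers were lower, with sums of 0.049 to 3.01 in NZO and 7.83 to 9.90 in B6 BAT, and Mylpf was not above background on any NZO array. The part of either in the members' differences was not tested.

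In muscle, 5 of 59 members tested differed, 2 higher and 3 lower in NZO, where 10.4% of all genes differed (4.43% higher and 5.97% lower). The median was -0.07, against -0.04 over all genes, and 13 members did not overlap between the strains, where 27.1% of all genes did not. Besides Mx1, Mx2 and Ifitm1, Gbp3 was 0.48, 0.46, 0.56 and 0.60 in NZO and 1.06, 1.04 and 1.32 in B6, and the means differed by -0.61 (adjusted p = 0.0163). Zbp1, a sensor of Z-form nucleic acid that can trigger necroptosis, was -1.84, -1.91, -2.66 and -2.56 in NZO and -0.87, -0.70 and -1.24 in B6, and the means differed by -1.31 (adjusted p = 0.0200). In the fats the 2 probes of Zbp1 disagreed, at 0.06 and 0.84 in gWAT and -0.51 and 0.50 in BAT. The second passed in gWAT (limma adjusted p = 0.0376) and was not tested in muscle. B6 replicate 010 was the highest of the 3 B6 arrays for 37 of 59 members (62.7%), where it was so for 28.2% of all genes. Without B6 replicate 010 the count of members called was 2, without B6 replicate 009 it was 1, and without NZO replicate 003 or 007 it was 3, all lower. Without B6 replicate 015 it was 5, again all lower. These counts are given without the share of all genes called under the same setting, so they describe no trait particular to the members.

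Mx1 and Mx2 differed in all 3 tissues, and Ifi35, Ifitm3 and Irgm2 in both fats. Some slides held both strains of a tissue. On the 2 such slides of gWAT, Irf8 differed by 1.21 and 1.54, and Irgm2 by -1.01 and -1.15. On the single such slide of BAT, Irgm2 differed by -0.90. These are the arrays that gave the calls, so where the strains did not overlap the sign within a slide follows from the call.

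The test of the difference between tissues found 7 of 63 members with another strain effect in BAT than in gWAT, where 18.6% of all genes had one (8.66% higher and 9.98% lower). The effect was lower in BAT for Irf8 (-1.59), Irf5 (-1.41), Irf4 (-1.27) and Oasl1 (-1.001), and higher for Gbp5 (1.30), Irf2bpl (0.78) and Irf2bp1 (0.54). Between muscle and gWAT it was 11 of 64 members, where 20.5% of all genes differed (7.99% higher and 12.5% lower). The OAS genes Oasl1, Oas1a, Oas1f and Oas1d (from -1.51 to -0.76), Irf8 (-1.70), Irf5 (-1.59), Zbp1 (-1.37) and Ifitm7 (-1.21) had a lower effect in muscle. Irgm2 (0.94), Gbp5 (1.03) and Mx2 (2.04) had a higher one, of which the value for Mx2 is no measure of size, since its NZO signal was at background. Between muscle and BAT 3 of 62 differed, where 5.97% of all genes did (2.58% higher and 3.38% lower): Irgm2 (1.04), Irf4 (1.28) and Irf2bp2 (-0.69). Without NZO gWAT replicate 012 the count for BAT against gWAT was 12, 8 of them higher. For muscle against gWAT, 5 effects were lower without NZO muscle replicate 009 and 4 without B6 muscle replicate 010. These splits moved with the scaling, and the share of all genes called under each changed setting is not given here. For BAT against gWAT, 3 effects were positive and 4 negative, which became 1 and 6 with arrays centred on their median and 6 and 4 with quantile scaling. For muscle against gWAT the split of 3 and 8 became 1 and 12 with median centring. For muscle against BAT the split of 2 and 1 became 1 and 0 with median centring and 2 and 0 with quantile scaling.

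By their median difference, the members were lower in BAT than in gWAT and lower in muscle than in BAT, in both strains. By group mean, gWAT was the highest tissue for 45 of 64 members in B6 and for 40 in NZO, and muscle for 6 and 9. The same count over all genes is not given here. In B6 muscle, 44 of 62 members tested were lower than in gWAT and 5 higher, where 69.6% of all genes differed, 33.6% lower and 36% higher. In NZO 46 of 63 were lower and 7 higher, where 70.4% of all genes differed, 34.5% lower and 35.8% higher. The members' medians were -0.86 in B6 and -1.13 in NZO, against 0.07 over all genes in each. In BAT against gWAT, 31 of 60 were lower and 7 higher in B6 (59.8% of all genes called, 26.2% lower and 33.6% higher). In NZO 28 of 62 were lower and 8 higher (66.1% called, 28.1% lower and 37.9% higher). Centring arrays on their median turned this last split to 41 lower and 1 higher, and moved the median of all genes from 0.20 to -0.25. Between muscle and BAT, 26 of 61 were lower and 12 higher in B6 (62.2% of all genes called, 32.4% lower and 29.8% higher), and 35 of 61 lower and 8 higher in NZO (63.9% called, 35.9% lower and 28% higher).

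**Figure D4:**
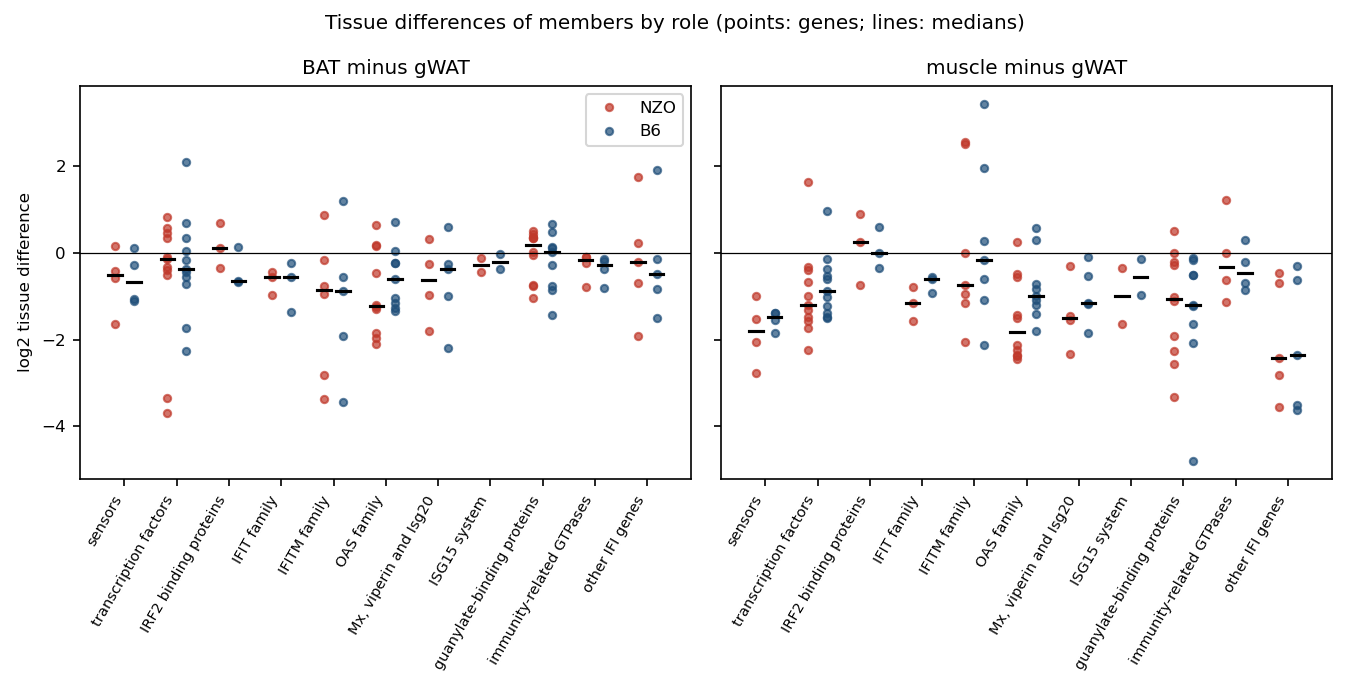
Difference of each member from gWAT in BAT (left) and muscle (right), on a log2 scale, by role; points are genes, NZO in red and B6 in blue, and black lines are medians. In muscle most roles lie below 0 in both strains, with a few IFITM genes above.

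Single members departed from this order. Ifi27 was higher in BAT (9.93 in B6 and 10.02 in NZO) than in gWAT (8.03 and 8.29) and lowest in muscle (5.67 and 5.85). BAT exceeded gWAT by 1.90 in B6 (limma adjusted p = 4.96e-10) and 1.73 in NZO (1.49e-09). Irf4 was likewise higher in BAT than in gWAT, by 2.08 in B6 and 0.81 in NZO. Irf8 and Irf5 were lowest in BAT: Irf5 was lower there than in gWAT by 2.27 in B6 and 3.68 in NZO. Ifitm10 and Ifitm5, the latter known from bone, were higher in muscle than in gWAT by 3.42 and 1.96 in B6 and by 2.49 and 2.54 in NZO. Both were near background in B6 gWAT, where 3 of 4 arrays were above it. Gbp2 fell in the order gWAT, BAT and muscle, at 3.44, 2.67 and 1.36 in B6 and 3.82, 2.78 and 1.27 in NZO. The tissue contrasts share the gWAT arrays, so their counts are not independent.

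**Figure D5:**
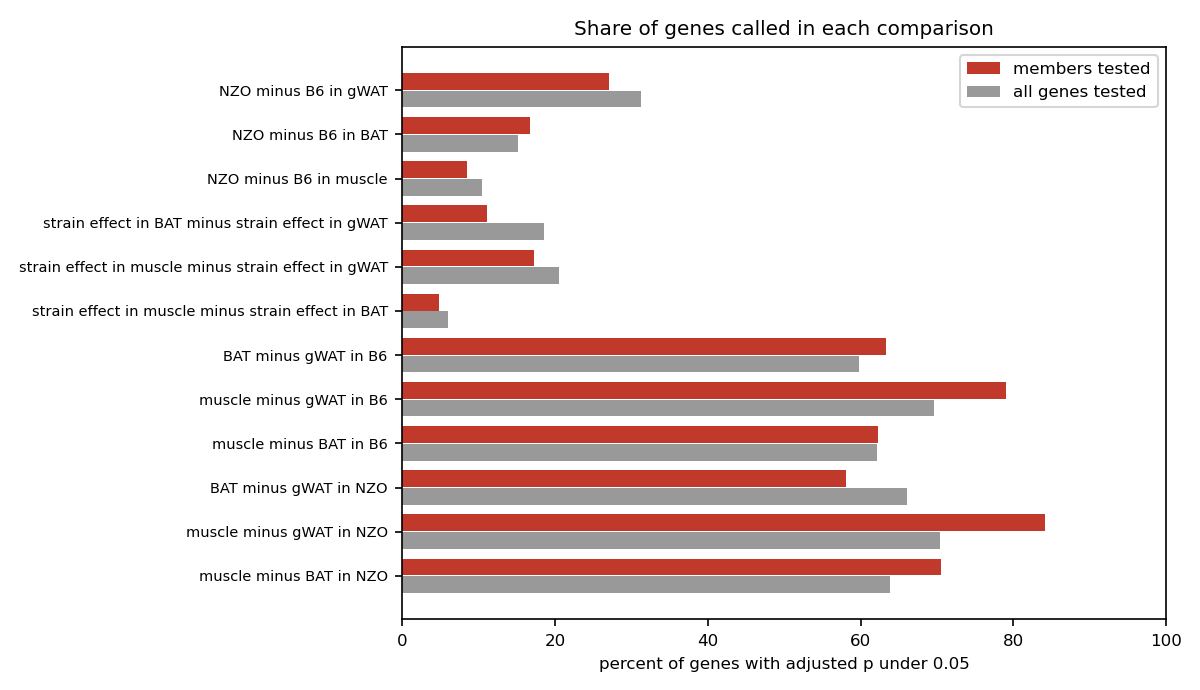
Percent of genes with an adjusted p under 0.05 in each of the 12 comparisons, for the members tested (red) and for all genes tested (grey). The members lie above all genes most in muscle against gWAT, and below them in the tests of the difference of strain effects.

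The genes around the members were read from lists chosen by function. In gWAT, of 17 genes of nucleic acid sensing 11 were higher and 1 lower in NZO, among them the RNA receptors Tlr7 (1.20, adjusted p = 4.17e-04) and Tlr8 (1.40, 1.20e-04) and the DNA sensor Mb21d1 (1.00, 3.81e-04) up, and the DNA receptor Tlr9 (-1.11, 7.64e-04) down. They moved beside the macrophage markers, of which 10 of 11 were higher in NZO gWAT, and the part of these cells was not tested. In BAT, Tmem173 and Rnaseh2c were higher and Mavs lower, of 15 sensing genes tested, and in muscle 0 of 14 were called. Tlr7 differed by 0.22 in BAT (limma adjusted p = 0.520) and by 0.11 in muscle (0.666), and Mb21d1 by 0.18 (0.426) and 0.36 (0.183). Of 8 receptors and kinases tested in gWAT 4 were higher in NZO, among them Ifngr2 (1.08) and Ifnar2 (0.54), while in BAT 0 of 8 were called. Of 8 interferon genes tested in gWAT 1, Ifnk, was lower in NZO and not above background on any NZO gWAT array. Of 51 other interferon-induced genes tested in gWAT 5 were higher, such as Cxcl10 (1.68) and Slfn2 (1.20), and 6 lower, such as Herc6 (-1.17) and Trim21 (-1.12). Slfn2 was lower in NZO in BAT, and its strain effect differed between the 2 fats. In BAT 6 of 51 were higher and 5 lower, and in muscle 2 of 50 were higher and 5 lower, with Eif2ak2 higher and Trim21, Cmpk2 and Gvin1 lower in NZO in both, as in gWAT, genes singled out after their values were seen. Of the 8 receptors and kinases, Jak2 was lower in NZO muscle (-0.69, adjusted p = 0.0398).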

How the data were processed

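RNA from 24 samples (4 per strain and tissue) was hybridised to single-colour Agilent arrays. The deposited scanner files hold spot intensities that the authors read with Agilent Feature Extraction, version 11.0.1.1 per the file headers and 9.1 per the submitters' processing notes, with the local background subtracted. The deposited series table of intensities, 37877 identifiers, equals the mean of the median spot signals of each identifier within 0.0001, unscaled and not centred, and served as an alternative. The flags for spots well above background were taken from the deposited files as they stand.

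Here, log2 processed signal was scaled to the 75th percentile of each array, spots of a probe were averaged, and the brightest of a gene's probes was used. A gene was tested where every array of either group compared flagged it well above background, with limma 3.58.1 in R 4.3.3, with Benjamini-Hochberg adjustment. Strains were compared in a fit of each tissue, and tissues and differences of strain effects in 1 fit of the 6 groups over 23 arrays. The scripts were tested on simulated data. Bounds ("at least") set the bright group against the lowest signal well above background. Alternatives covered the background correction (normexp, offset 50), scaling, filter, choice of probe, source of values, the left-out array, slide and replicate number as blocks, and each array left out in turn. Members are named by the rule that chose them; results of some members are not reported here, though the counts include them. Array values are given for the called members with the largest differences and no overlap, and up to 4 genes are named per list of other genes unless stated. The members and lists were chosen with earlier results of these data known. Figures were drawn with matplotlib 3.10.9.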

Additional observations from a re-analysis of the deposited data

Results flagged for a closer look

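Of 297 groups of 4 arrays of a member, 18 had an array whose gap to its nearest neighbour exceeded Dixon's 95% critical value, and chance flags about 1 group in 20. In NZO gWAT, replicate 012 was far above the others for Ifit2 (0.29), Irf1 (4.33), Irgm1 (2.33) and Oasl2 (2.62), and replicate 003 far below for Ifitm10 (-4.16). In B6 gWAT, Irf2bp2 was high on replicate 015 (4.23) and Irf7 low on 011 (0.58). In NZO BAT, replicate 011 was high for Dhx58 (-0.11), Ifit2 (-0.76) and Oas1c (-0.31) and low for Ifitm7 (6.66), replicate 007 was low for Irf2bp1 (0.018) and replicate 009 for Isg15 (3.01). In B6 BAT, replicate 011 was high for Gbp11 (-0.37) and low for Isg20 (1.86). In NZO muscle, replicate 009 was low for Gbp7 (0.51), 007 for Isg15 (1.57) and 011 for Oas1c (-2.56).

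The strain effect differed between tissues by limma's test of the difference, with Benjamini-Hochberg adjustment, in 21 cases. From gWAT to BAT these were Irf8 (-1.59), Irf5 (-1.41), Irf4 (-1.27), Oasl1 (-1.001), Irf2bp1 (0.54), Irf2bpl (0.78) and Gbp5 (1.30). From gWAT to muscle they were Irf8 (-1.70), Irf5 (-1.59), Oasl1 (-1.51), Zbp1 (-1.37), Ifitm7 (-1.21), Oas1a (-1.16), Oas1f (-1.02), Oas1d (-0.76), Irgm2 (0.94), Gbp5 (1.03) and Mx2 (2.04). From BAT to muscle they were Irgm2 (1.04), Irf4 (1.28) and Irf2bp2 (-0.69). The Gbp5 values rest on a single probe, and the probes of Zbp1 disagreed in gWAT, as given above.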

How the results depend on the processing

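Of the called members, 10 of 17 in gWAT (Gbp2b, Ifitm3, Irf5, Irf8, Irgm2, Mx1, Mx2, Oas1a, Oas1f and Oasl1), 6 of 10 in BAT (Ifi35, Ifitm3, Irf4, Irgm2, Mx1 and Mx2) and 1 of 5 in muscle (Mx2) passed in the same direction under every alternative run. The muscle count of 5 was 3 with median centring, 3 without the filter, 3 with B6_quad_011 kept, 8 with the slide as a fixed block, 10 with it as a random block, and 10 in 1 fit of the 6 groups. For the strain effect in BAT against gWAT, 7 became 12 with normexp and 11 with the series table. For muscle against BAT, 3 became 1 with median centring, 1 without the filter, 5 with the mean of all probes, 5 with the series table and 1 with the slide as a fixed block. The share of all genes called under these settings is not given here, so these counts describe no trait particular to the members. The causes were not tested.

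Leaving out single arrays gave 12 to 20 calls in gWAT, 7 to 12 in BAT and 1 to 6 in muscle. In gWAT the 12 stood beside 22% of all genes called and the 20 beside 29.9%. In BAT the 12, without NZO BAT replicate 007, stood beside 16.2%, and the 7 without replicate 009 beside 10.1%. For the differences of strain effects the counts were 6 to 12 (BAT against gWAT), 7 to 11 (muscle against gWAT) and 1 to 5 (muscle against BAT). For muscle against gWAT, the 7 was without B6 muscle replicate 010. For muscle against BAT, the count was 1 without NZO muscle replicate 003, B6 muscle replicate 009 or B6 BAT replicate 010. It was 5 without NZO BAT replicate 007 or 011. For muscle and for the differences of strain effects, the share of all genes called is not given here. Those counts describe no trait particular to the members. The total tissue counts stayed within 1.5 times, but the 8 members higher in NZO BAT than in NZO gWAT became 13 without NZO gWAT replicate 012, where 64.1% of all genes were called.

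With the replicate number as a random block, in 1 fit of the 6 groups, the counts were 23 in gWAT, 10 in BAT and 10 in muscle. Of all genes, 38.3% then differed in gWAT and 16.5% in BAT. The share in muscle is not given here. The same fit without a block also gave 23 in gWAT and 10 in BAT. Samples of a strain with the same number in different tissues had deviations that correlated between -0.18 and 0.41 over 20 pairs. The median was 0.080, with 7 over 0.1. Over 13 pairs with the same number in different strains the range was -0.24 to 0.20. There the median was -0.070, with 1 over 0.1. Whether the numbers pair samples of a strain is thus undecided, and the main tests between tissues did not model a pairing. Signal near background limits Mx2, Gbp2b and Ifitm5.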
